A study of Mus musculus with 6 samples.

Results

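Described here are 10 genes that encode subunits, feedback inhibitors and inducible products of the transcription factor NF-κB, with their transcript levels in keratinocytes cultured from mouse epidermis and sequenced as mRNA libraries. They are Nfkb1, Nfkb2, Relb, Nfkbia, Tnfaip3, Bcl3, Birc3, Tnf, Cxcl1 and Ccl20, taken by name, and all 10 were found among the 23420 genes of the count table. The 3 libraries labelled WT came from cells of genotype K14CreERT2-;Gata6 fl/fl and the 3 labelled iKO from K14CreERT2+;Gata6 fl/fl cells. Every cell therefore carried loxP-flanked alleles of the transcription factor gene Gata6, and the iKO cells alone carried the Cre recombinase, which the keratin 14 promoter expresses in basal keratinocytes and which acts once tamoxifen is present. Cells of passage 8 to 10 in low-calcium medium were in both groups given 1 µM 4-hydroxytamoxifen for 6 hours, so no group without the drug is part of the comparison. The title of the series connects Gata6 with NF-κB through Edaradd, and the comparison asks whether these genes differ between the genotype labels.

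NF-κB is a dimer of Rel family proteins that inhibitor proteins hold in the cytoplasm. Signals from receptors of the tumour necrosis factor, interleukin-1 and Toll-like families activate a kinase that has the inhibitor destroyed, and the dimer then enters the nucleus and binds short sites near its target genes. Among the genes it switches on are its own inhibitors, which end the response, and chemokines and cytokines through which keratinocytes call leukocytes into the skin. NF-κB in the hair placode is activated by the ectodysplasin receptor and its adaptor Edaradd.

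The stretches just before the start sites of these genes are shown first, because they hold the sites through which NF-κB is known to act on several of them. The windows come from RefSeq promoters on GRCm38.p6, each 250 bases before to 50 bases after a start site, and 8 of the 10 genes were found there (not Nfkb1 and Relb). Both strands were searched for the 10-base NF-κB consensus motif, and matches that overlapped were counted as 1 site. A match was present for 6 of the 8 genes, against 9.55% of the 27025 gene symbols and 8.46% of the 32851 windows in the table. Matches are a description of the letters, not measured binding. Capitals mark the matches, and each line is read 5′ to 3′ on the strand of the gene and, except for Bcl3, ends at the base before the first listed start.
Nfkbia (chr12:55492648-55492777, minus strand): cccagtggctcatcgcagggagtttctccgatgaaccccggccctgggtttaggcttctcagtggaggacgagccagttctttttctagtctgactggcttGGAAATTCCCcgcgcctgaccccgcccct
Tnfaip3 (chr10:19015411-19015540, minus strand): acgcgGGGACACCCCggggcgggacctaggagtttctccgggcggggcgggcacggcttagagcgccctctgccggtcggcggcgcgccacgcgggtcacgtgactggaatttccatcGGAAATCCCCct
Nfkb2 (chr19:46304607-46304736, plus strand): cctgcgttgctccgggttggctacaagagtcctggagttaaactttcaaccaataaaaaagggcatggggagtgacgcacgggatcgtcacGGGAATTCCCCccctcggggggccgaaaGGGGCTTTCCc
Cxcl1 (chr5:90891115-90891244, plus strand): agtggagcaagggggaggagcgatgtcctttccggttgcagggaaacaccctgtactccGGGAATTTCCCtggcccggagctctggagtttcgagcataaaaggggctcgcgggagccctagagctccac
Ccl20 (chr1:83116636-83116765, plus strand): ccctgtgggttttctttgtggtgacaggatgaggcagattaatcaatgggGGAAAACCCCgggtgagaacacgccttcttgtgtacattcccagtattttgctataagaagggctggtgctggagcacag
Bcl3 (chr7:19822734-19822763, minus strand, 8 bases before to 22 after the start): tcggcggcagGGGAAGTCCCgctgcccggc
Birc3 (chr9:7873171-7873300, minus strand, no match): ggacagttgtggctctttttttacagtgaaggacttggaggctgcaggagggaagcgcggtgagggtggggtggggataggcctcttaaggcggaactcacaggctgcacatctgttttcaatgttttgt
Tnf (chr17:35202008-35202137, minus strand, no match): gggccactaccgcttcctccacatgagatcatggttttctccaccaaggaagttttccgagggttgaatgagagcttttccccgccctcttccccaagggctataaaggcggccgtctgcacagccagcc

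The first base of the match lay 29 bases before the start in Nfkbia, 71 in Cxcl1 and 80 in Ccl20. Tnfaip3 had sites whose first bases were 125 and 12 bases before its first listed start, and Nfkb2 had sites 39 and 11 bases before its own. In Bcl3 the match began at base 3 of the transcript. Birc3 and Tnf had no match in the whole window, which says only that these letters are not there.

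Reads assigned to genes numbered 21943467, 79055307 and 34047196 in WT 2, WT 3 and WT 4. They numbered 32751896, 44784847 and 83337263 in iKO 3, iKO 4 and iKO 33, so WT 3 and iKO 33 were the 2 deepest libraries. The library iKO 33 is named by the number of its column, which matches no iKO title. The sample titled iKO2 has no column under its number, and whether iKO 33 is that sample is not stated in the labels. Gata6 went against the labels: its normalised CPM (counts scaled to library size with TMM factors) was 0.519 to 5.37 in the libraries labelled WT and 14.2 to 21.0 in those labelled iKO. Counts per gene do not show whether the floxed exons were lost. Esr1 was at 0.0633 to 0.284 CPM in WT and 29.6 to 99.3 CPM in iKO. The Cre fusion contains a part of the oestrogen receptor, and which part of Esr1 was read cannot be seen from such counts. All directions are those of the libraries labelled iKO against those labelled WT. Sex-linked transcripts also separated the groups, with Xist at 604 to 888 CPM in WT and 0.0823 to 2.62 CPM in iKO, so sex and genotype label cannot be told apart. Reads without a unique alignment made up 29.5% to 30.5% of counts in WT and 21.7% to 26.5% in iKO, and their part in the results was not tested. The keratinocyte marker Krt5 stood at 14715 to 23614 CPM over all libraries. Of 8 keratinocyte markers 4 had higher and 4 lower values in iKO and 0 passed in edgeR. Trp63 was at 307 to 331 CPM in WT and 191 to 205 CPM in iKO, and Cdh1 at 418 to 442 and 563 to 725 CPM. The summed level of 5 endothelial markers was 9.31 to 19.0 CPM in WT and 7.29 to 8.94 CPM in iKO, led by Kdr, with Emcn at 0 in every library; the part of these markers in the results was not tested. Whether a group's libraries are separate cultures or animals is not stated in the labels, and the p-values reflect only their spread, part of which may be technical.

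The 10 genes differed in the direction of their values. Those of Birc3 and Tnf were lower and those of Bcl3 higher in the libraries labelled iKO, Tnfaip3 had a smaller positive value, and Nfkb1, Nfkb2, Relb, Nfkbia and Cxcl1 had ratios of group mean CPM (iKO over WT) of 0.899 to 0.987. None of the 9 genes with enough counts to be tested passed edgeR's quasi-likelihood test at an adjusted p of 0.05, which 0.339% of all 12672 tested genes did. An unadjusted p under 0.05 was reached by 3 of the 9 (15% of all tested genes), and DESeq2 called the same 3, Birc3, Tnf and Bcl3 (6.12% of all genes it could adjust). Limma-voom called 0 of the 9 (0.466% of all tested genes). In the authors' deposited table these 3 also passed, where 5.9% of genes with an adjusted p did; that table comes from the same libraries.

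**Figure D1:**
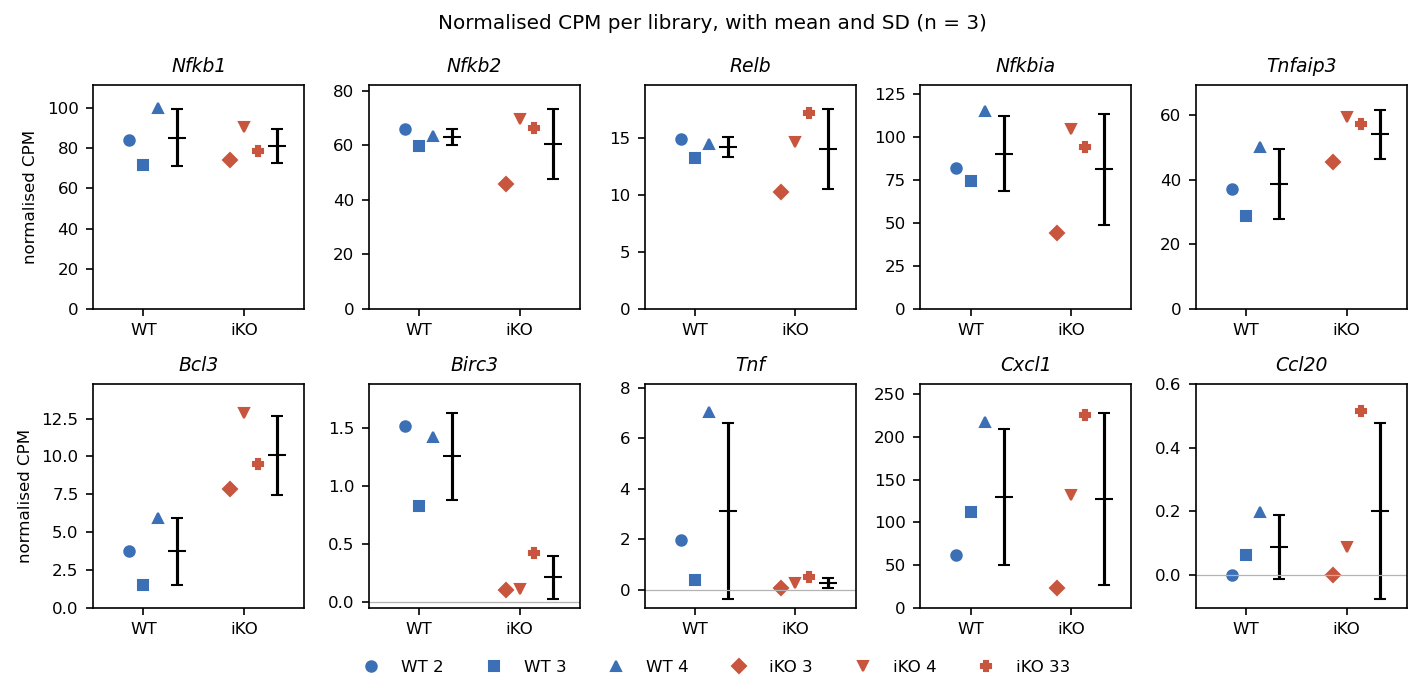
Normalised CPM (vertical axes, linear, each gene on its own scale) of the 10 genes in each library, by group label; black bars are mean and SD (n = 3). Birc3 and Bcl3 are the genes whose groups do not overlap; in Cxcl1 the libraries of each group spread over most of the axis.

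The subunit genes were the steadiest. Nfkb1, which encodes a precursor that is cut into a DNA-binding subunit lacking an activation domain, measured 84.2, 71.6 and 100.2 CPM in WT 2, WT 3 and WT 4 and 74.0, 90.5 and 78.5 CPM in iKO 3, iKO 4 and iKO 33. The groups overlapped, and the log2 fold change was -0.07 (SE 0.15, 95% interval -0.44 to 0.29; edgeR adjusted p = 0.866). Nfkb2, which encodes the precursor of the alternative pathway, measured 65.9, 59.9 and 63.3 CPM in the libraries labelled WT and 45.6, 69.5 and 66.3 CPM in those labelled iKO, in the same order of libraries. Here iKO 3 lay below every library labelled WT while iKO 4 and iKO 33 lay above them, and the log2 fold change was -0.06 (95% interval -0.46 to 0.35). Relb, the partner of the processed Nfkb2 product, measured 15.0, 13.2 and 14.5 CPM against 10.3, 14.7 and 17.2 CPM. Its log2 fold change was -0.02 (95% interval -0.50 to 0.47). The intervals of these 3 genes leave out a change by a factor of 2 (a log2 value of 1) in either direction, but not smaller ones.

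Nfkbia, the IκBα inhibitor gene and a standard readout of NF-κB activity, varied more within the groups than between them. It measured 81.6, 74.1 and 115.0 CPM in the libraries labelled WT and 44.2, 104.8 and 94.3 CPM in those labelled iKO. The groups overlapped, with iKO 3 below all other libraries and WT 4 above them. The log2 fold change was -0.15 (SE 0.33, 95% interval -0.93 to 0.63; edgeR adjusted p = 0.874). The sign rested on single libraries: the value was 0.05 without WT 4 and 0.14 without iKO 3.

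Tnfaip3 encodes the ubiquitin-editing enzyme that shuts off signalling upstream of the kinase. It measured 37.1, 28.7 and 50.2 CPM in the libraries labelled WT and 45.5, 59.3 and 57.3 CPM in those labelled iKO. The groups overlapped in 1 place, where iKO 3 lay below WT 4. The log2 fold change was 0.48 (SE 0.22, 95% interval -0.03 to 1.00), which did not pass in edgeR (adjusted p = 0.361; unadjusted p = 0.0624) or in DESeq2 (adjusted p = 0.297). It ranged from 0.31 without WT 3 to 0.71 without WT 4.

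Bcl3, a nuclear IκB family protein that acts as a cofactor of Nfkb1 and Nfkb2 dimers, had its values apart. It measured 3.73, 1.54 and 5.94 CPM in the libraries labelled WT and 7.83, 12.9 and 9.47 CPM in those labelled iKO, and the highest WT library lay below the lowest iKO library. The means were 3.74 ± 2.20 and 10.1 ± 2.58 CPM (SD, n = 3). The log2 fold change was 1.44 (SE 0.48, 95% interval 0.31 to 2.56). In edgeR the adjusted p was 0.237, short of the threshold, and DESeq2 called the gene (adjusted p = 0.0422). Across the other alternatives the adjusted p reached 0.458, and the log2 fold change was 1.05 without WT 3 and 1.96 without WT 4. Relb lies 179 kb from Bcl3 on chromosome 7, and its value was near 0 as given above.

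Birc3, an inhibitor of apoptosis protein that adds ubiquitin in the receptor complex, was the other gene without overlap between groups, with low counts throughout. It had 33, 65 and 50 reads in the libraries labelled WT and 3, 5 and 36 in those labelled iKO. As normalised CPM these were 1.52, 0.823 and 1.42 against 0.0959, 0.111 and 0.423. The exact 95% Poisson interval of iKO 33 (0.297 to 0.586 CPM) lay just below that of WT 3 (0.635 to 1.05 CPM), and such intervals cover counting error only. The log2 fold change was -2.43 (SE 0.62, 95% interval -3.89 to -0.97; edgeR adjusted p = 0.161, DESeq2 adjusted p = 0.0255). Without iKO 33, the library nearest the WT range, it was -3.54, and the adjusted p over all alternatives ran up to 0.385. The paralogue Birc2, next to it on chromosome 9 with a gap of 11.6 kb, encodes a protein of the same kind. Birc2 measured 22.9 ± 4.98 CPM in WT and 22.6 ± 0.941 CPM in iKO (SD, n = 3), and its log2 fold change was -0.02 (SE 0.17). Reads without a unique alignment fell in a separate summary row, so reads that the 2 genes share could be missing from both.

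Of the 9 tested genes, the 2 without overlap compare with 21.9% of all tested genes whose groups did not overlap. Leaving out 1 library changed the set: Tnfaip3 joined without WT 4, Tnf without WT 3 or without iKO 33, and Tnfaip3 and Nfkb2 without iKO 3. That gave 2 to 4 of the 9 genes, while the share of all tested genes without overlap was then 29.4% to 35.9%.

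Tnf, the cytokine that both induces and is induced by NF-κB, had the most negative value and one of the widest spreads. It had 43, 29 and 248 reads in the libraries labelled WT and 2, 12 and 41 in those labelled iKO, or 1.98, 0.367 and 7.05 CPM against 0.0639, 0.267 and 0.482 CPM. The groups overlapped, since WT 3 lay below iKO 33, and WT 4 alone held most of the WT reads. The log2 fold change of -3.42 (SE 1.11, 95% interval -6.04 to -0.79) missed the threshold in edgeR (adjusted p = 0.230) but not in DESeq2 (adjusted p = 0.0144). It was -1.95 without WT 4 and -4.15 without iKO 33, and its adjusted p reached 0.473 over the alternatives. Macrophages and dendritic cells also make Tnf. The summed level of 12 marker genes of those cells was 5.71 to 8.13 CPM in WT and 5.31 to 6.93 CPM in iKO, 0 of the 4 tested ones passed in edgeR, and Emr1, Cd207 and Tyrobp had no count in any library. Cd14, another of the 12, was at 1.68 to 3.24 CPM in WT and 0.959 to 2.87 CPM in iKO. In bulk libraries fewer cells with a transcript and less of it per cell cannot be told apart.

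**Figure D2:**
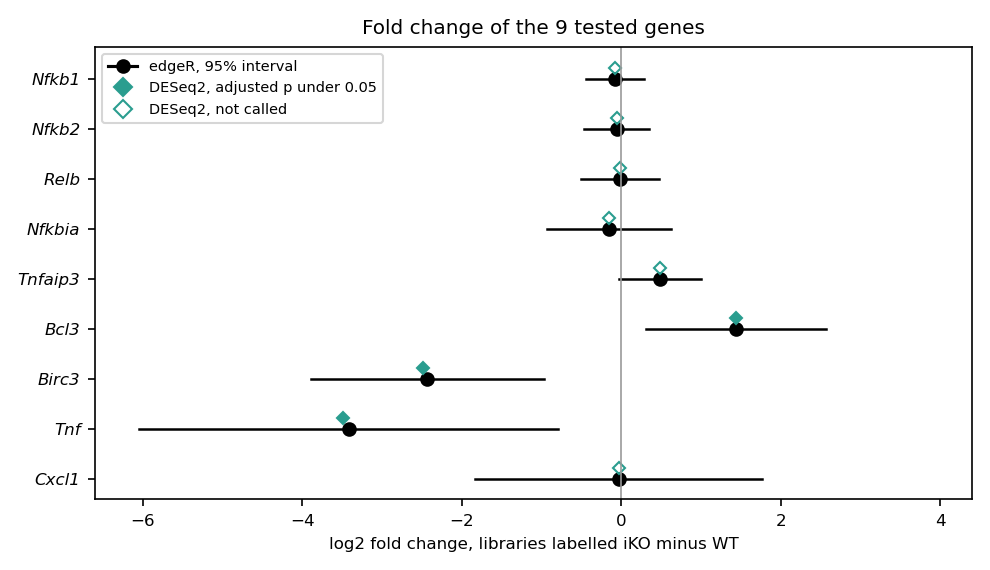
Log2 fold change (horizontal axis, libraries labelled iKO minus WT) of the 9 tested genes; black points and lines are edgeR values with 95% intervals, green diamonds DESeq2 values, filled where its adjusted p was under 0.05. Bcl3, Birc3 and Tnf have edgeR intervals that leave out 0 before adjustment, while Nfkb1, Nfkb2 and Relb lie close to 0 with narrow intervals.

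The chemokine genes differed far more between libraries of 1 group than between groups. Cxcl1, which encodes a neutrophil attractant, measured 61.4, 112.3 and 217 CPM in the libraries labelled WT and 23.8, 133 and 226 CPM in those labelled iKO. The ratio of the highest to the lowest library was 3.54 in WT and 9.49 in iKO, and the ranges overlapped almost wholly. The log2 fold change was -0.03 (SE 0.76, edgeR adjusted p = 0.988), and its 95% interval of -1.83 to 1.76 leaves room for a change of more than a factor of 2 either way. It was 0.54 without WT 4, 0.46 without iKO 3 and -0.74 without iKO 33, and it was -1.46 with a replicate block on the 4 libraries numbered 3 and 4.

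Ccl20, which encodes the ligand that draws Langerhans cell precursors and some T cells into epidermis, was close to the detection limit and was not tested in the fit. It had 0, 5 and 7 reads in the libraries labelled WT and 0, 4 and 44 in those labelled iKO. For the counts of 0, a floor of 3 counts amounts to 0.138 CPM in WT 2 and 0.0959 CPM in iKO 3, and the upper bound of the exact 95% Poisson interval to 0.170 and 0.118 CPM. The highest library was iKO 33, at 0.518 CPM (exact 95% Poisson interval 0.376 to 0.695). The mean difference of 0.115 CPM gave p = 0.7 in an exact two-sided permutation test, where 0.1 is the smallest p that 3 libraries against 3 allow.

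The library labelled iKO 3 was the lowest of its group for 10 of 10 genes, against 36.3% of all tested genes. WT 3 was the lowest of its group for 8 of 10 (39.0% of all tested genes), and WT 4 the highest for 7 of 10 (31.5%). Nfkb1, Nfkbia, Tnfaip3 and Bcl3 shared 1 order, WT 3 below WT 2 below WT 4 and iKO 3 below iKO 33 below iKO 4. Cxcl1 and Ccl20 shared another, in which WT 2 and iKO 3 were lowest and WT 4 and iKO 33 highest. These counts describe 6 libraries and were not tested.

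**Figure D3:**
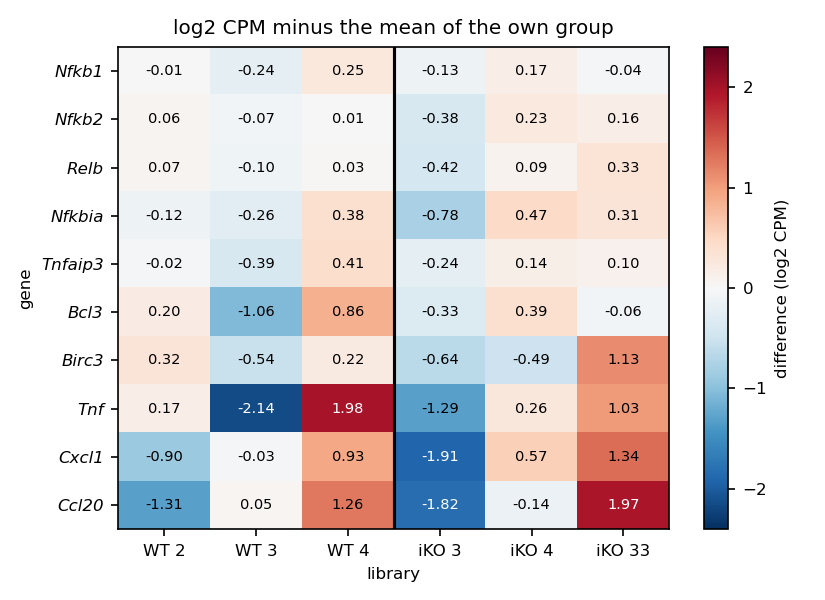
Difference of each library's log2 CPM (prior count 2) from the mean of its own group, for the 10 genes (rows) in the 6 libraries (columns); red is above and blue below the group mean. The iKO 3 column is negative in all 10 rows, from -0.13 for Nfkb1 to -1.91 for Cxcl1. Over the 6 libraries the differences are smallest in Nfkb1 (-0.24 to 0.25) and large in Tnf, Cxcl1 and Ccl20.

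The spread within groups differed between the genes. As a pooled within-group SD of log2 CPM, Nfkb1 (0.20), Nfkb2 (0.24) and Relb (0.28) lay near the median of all tested genes (0.24). Tnfaip3 stood at 0.32 and Nfkbia at 0.53. Bcl3 (0.73) and Birc3 (0.77) lay at percentiles 90.9 and 91.7 of all tested genes, and Cxcl1 (1.36) and Tnf (1.68) at 98.3 and 99.4. Birc3 had 3 to 65 and Tnf 2 to 248 reads per library, and Cxcl1 had 744 to 19179.

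Levels of different genes were compared per length of merged exons, as RPKM. Median RPKM over the 6 libraries was 65.3 for Cxcl1, 54.6 for Nfkbia, 14.1 for Nfkb2, 6.74 for Nfkb1, 6.62 for Tnfaip3, 3.76 for Relb, 2.78 for Bcl3, 0.259 for Tnf, 0.124 for Birc3 and 0.0535 for Ccl20. The ranges of Cxcl1 (12.7 to 120.3) and Nfkbia (27.5 to 71.4) overlapped, as did those of Nfkb1 (5.93 to 8.31) and Tnfaip3 (3.98 to 8.20). Nfkb2 (9.96 to 15.2) was separate per length from its neighbours on both sides, below Nfkbia and above Nfkb1. The order of Nfkb2 and Nfkb1 depends on their merged exon lengths of 4584 and 12061 bases. As CPM, Nfkb1 (71.6 to 100.2) lay above Nfkb2 (45.6 to 69.5). Which transcripts were present was not tested. Bcl3 (0.624 to 5.21) overlapped with Relb (2.65 to 4.44) and with Tnf (0.0390 to 4.30), and Birc3 (0.0191 to 0.304) with Ccl20 (0 to 0.364). Bcl3 lay above Tnf in every library except WT 4, with group means of 4.07 ± 1.04 and 0.165 ± 0.128 RPKM in iKO and 1.51 ± 0.888 and 1.91 ± 2.13 RPKM in WT (SD, n = 3).

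**Figure D4:**
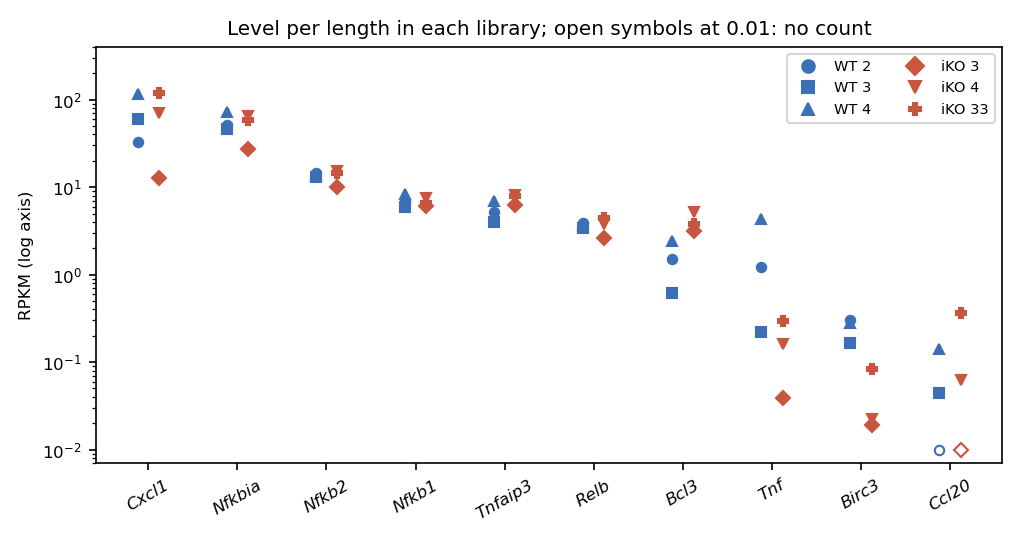
RPKM (vertical log axis) of the 10 genes in each library, ordered by their median, with WT libraries left and iKO libraries right of each position; open symbols at 0.01 mark libraries with no count. The inhibitor gene Nfkbia and the chemokine gene Cxcl1 were the most abundant per length, and Tnf, Birc3 and Ccl20 the least.

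The rest of the pathway was read from 5 lists of 110 genes in all beside the 10, of which 86 were tested. Of these 86, 54 had positive and 32 negative log2 fold changes, with a median of 0.11, against 48.8% negative and a median of 0.01 over all tested genes. One of them, Ier3, passed in edgeR (0.339% of all tested genes passed), 11 reached 0.05 before adjustment (15%), DESeq2 called Ier3, Gadd45b and Edaradd (6.12%), and limma-voom called Ier3 alone (0.466%). Groups did not overlap for 18 of the 86, against 21.9% of all tested genes.

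Among 19 tested subunit, inhibitor and kinase genes, 9 had positive and 10 negative values, with a median of -0.02, and none passed in edgeR. Bcl3 was the 1 gene under 0.05 before adjustment (15% of all tested genes), and DESeq2 called it alone (6.12% of all genes). Nfkbiz, another nuclear IκB family gene, stood at 70.1 ± 31.0 CPM in WT and 118 ± 46.3 CPM in iKO (0.75, SE 0.40, edgeR adjusted p = 0.432; 1.15 without WT 4). Ikbkb, a catalytic subunit of the IκB kinase, had a log2 fold change of 0.24 (SE 0.10), Rel, a subunit gene, of -0.33 (SE 0.15), and Tab2, an adaptor of the kinase upstream, of 0.17 (SE 0.09). The last 3, named for small p-values in their list, had groups that did not overlap, as did 21.9% of all tested genes. None of them passed (edgeR adjusted p = 0.338, 0.359 and 0.443).

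Of 21 tested adaptors, ubiquitin enzymes and brakes, 11 were positive and 10 negative (median 0.02), and none passed in edgeR. Before adjustment, 4 were under 0.05 (15% of all tested genes), and Birc3 was the 1 gene that DESeq2 called (6.12% of all genes). Tradd, the adaptor of the tumour necrosis factor receptor, measured 34.1 ± 3.25 CPM in WT and 44.9 ± 4.59 CPM in iKO. N4bp1, an inhibitor of the pathway, had a log2 fold change of 0.32 (SE 0.10), Rbck1, part of the linear ubiquitin ligase, of -0.36 (SE 0.15), and the deubiquitinase gene Cyld of 0.26 (SE 0.14).

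Of 25 tested receptors and ligands, 14 were positive and 11 negative (median 0.02), and none passed in edgeR. Before adjustment, 5 were under 0.05 (15% of all tested genes), and DESeq2 called Tnf and Edaradd (6.12% of all genes). Edaradd, the ectodysplasin receptor adaptor, measured 14.0, 16.8 and 16.7 CPM in the libraries labelled WT and 6.30, 8.00 and 8.55 CPM in those labelled iKO (log2 fold change -1.06, SE 0.18, edgeR adjusted p = 0.0727). The Toll-like receptor genes Tlr4 (-1.48, SE 0.53) and Tlr5 (-1.27, SE 0.47) had edgeR adjusted p = 0.261 and 0.282. Both were lower in every iKO library than in any WT library, and 21.9% of all tested genes had groups without overlap in either direction. Tlr4 was at -0.70 without WT 3. Irak2, a kinase that acts below these receptors and the interleukin-1 receptor, had a log2 fold change of 0.40 (SE 0.15).

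Of 13 tested chemokine and cytokine genes, 8 were positive and 5 negative (median 0.01), and none passed in edgeR. Tnf was the 1 gene under 0.05 before adjustment (15% of all tested genes) and the 1 that DESeq2 called (6.12% of all genes). Cxcl2 and Cxcl3 encode chemokines related to Cxcl1, and counts of such related genes are uncertain where they share reads. Cxcl2 measured 1.06, 0.506 and 8.44 CPM in the libraries labelled WT and 0.384, 1.53 and 1.26 CPM in those labelled iKO. WT 4 was its highest library, as for Tnf and for Cxcl1 within WT, and the log2 fold change of -1.63 (SE 1.05) became 0.50 without WT 4. Cxcl3 measured 162 ± 86.1 against 99.0 ± 47.1 CPM, and the cytokine genes Lif and Csf1 had log2 fold changes of 0.97 (SE 0.47) and 0.74 (SE 0.64). Single libraries moved Csf1, which was 0.097 without iKO 4 and 1.35 without WT 4, and Cxcl3, whose log2 fold change of -0.71 became -0.34 without WT 4 and -1.17 without iKO 4.

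Of 20 tested survival, adhesion and defence genes, 14 were positive and 6 negative (median 0.13). Ier3, an immediate early gene, was the 1 that passed in edgeR (0.339% of all tested genes passed). Before adjustment, 5 were under 0.05 (15% of all tested genes), and DESeq2 called Ier3, Gadd45b and Birc3 (6.12% of all genes). Ier3 measured 90.4 ± 6.50 CPM in WT and 183 ± 18.0 CPM in iKO (SD, n = 3, log2 fold change 1.02, SE 0.12, edgeR adjusted p = 0.0278). This call was lost without WT 2, WT 4, iKO 4 or iKO 33 (adjusted p = 0.194, 0.108, 0.0953 and 0.111). Gadd45b, a stress response gene, measured 64.1 ± 9.88 against 129 ± 30.9 CPM (log2 fold change 1.01, SE 0.20). Its groups did not overlap, as in 21.9% of all tested genes. It passed in DESeq2 (adjusted p = 0.000725) but not in edgeR (adjusted p = 0.108). Lcn2, which encodes an iron-binding defence protein, stood at 0.617 ± 0.0978 against 0.159 ± 0.0787 CPM (-1.84, SE 0.45, edgeR adjusted p = 0.154). It had low counts, with 15, 40 and 23 reads in the libraries labelled WT and 3, 6 and 21 in those labelled iKO. The prostaglandin synthase gene Ptgs2 had a log2 fold change of -0.64 (SE 0.24, and -0.34 without WT 3).

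**Figure D5:**
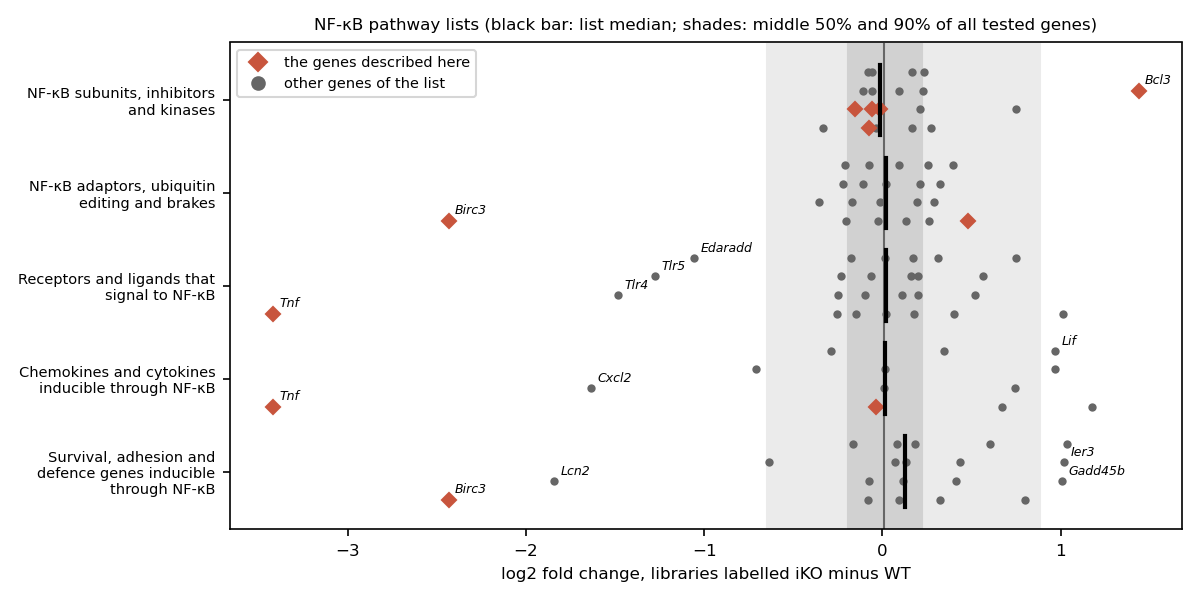
Log2 fold change (horizontal axis, libraries labelled iKO minus WT) of the tested genes of 5 NF-κB pathway lists; red diamonds are the tested genes among the 10 described here, black bars the list medians, and the shades the middle 50% and 90% of all tested genes. The list medians lie between -0.02 and 0.13, and Tnf and Birc3 are the most negative points; genes in several lists appear in each.

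Genes whose log2 CPM was most like that of a member over the 6 libraries were also listed, among 10046 tested genes with a mean log2 CPM of at least 1. For Nfkbia these included St3gal1 and S1pr2 (Pearson r = 0.996 for both), and 239 genes had r above 0.9. For Bcl3 they were Rhob, Snai3 and Wnt7a (r = 0.996, 0.994 and 0.993; 291 genes above 0.9), and for Birc3 Mfhas1, Zfp764 and Plk2 (r = 0.989, 0.989 and 0.980; 124 genes above 0.9). With 6 points that share libraries and group differences, such values are common and are given as a description.

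The authors' deposited table gave smaller sizes and smaller SEs for the same 3 called genes. Its log2 fold changes were -1.09 (SE 0.30) for Birc3, -0.89 (SE 0.28) for Tnf and 0.91 (SE 0.29) for Bcl3, with adjusted p = 0.0102, 0.0302 and 0.0345. The DESeq2 fit here gave -2.49 (SE 0.76) for Birc3, -3.49 (SE 1.00) for Tnf and 1.44 (SE 0.47) for Bcl3. The headers of the deposited table do not say whether its fold changes were pulled towards 0. The 2 sets of sizes are therefore not known to be the same measure. In the authors' deposited table Tnfaip3 stood at 0.41 (SE 0.21, adjusted p = 0.308), and Nfkb1, Nfkb2, Relb, Nfkbia and Cxcl1 lay between -0.12 and -0.01.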

How the data were processed

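Per the submitters' processing notes, reads were handled with mm10 and with TopHat2 and HTSeq, and DESeq and DESeq2 were used, versions not stated; annotation and strand: not given in the sources used here. One deposited table has raw counts of reads per gene symbol; its 5 HTSeq summary rows (27.4% to 35.5% of counts) were left out. A second table deposited by the authors has, per its DESeq2-style file headers, log2 fold changes with SE, p-values, a Wald score and a mean signal.

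Counts were fitted in R 4.3.3 with edgeR 4.0.16 (filterByExpr minimum count 10, TMM, robust glmQLFit and glmQLFTest, group as the only term, two-sided, Benjamini-Hochberg over all tested genes); DESeq2 1.42.0 and limma 3.58.1 (voom) were alternatives. The SE is the absolute log2 fold change over the square root of F, and intervals use its degrees of freedom. RPKM divides normalised CPM by merged exon length (GENCODE vM21). The edgeR fit and the motif search were tested on simulated data. The genes and lists were chosen with earlier results of these data known. Beside the 10 genes, the rule names up to 4 genes per list with the smallest p, the 3 genes most like Nfkbia, Birc3 and Bcl3, Gata6, and Birc2 (1 of these genes is not reported here); Xist, Krt5 and marker genes serve as checks, and Esr1, Trp63, Cdh1, Kdr, Emcn, Emr1, Cd207, Tyrobp and Cd14 were named after their values were seen. Depth per library is given with the results. Alternatives were other scaling factors and count filters, no robust estimation, a replicate block, a term for the 2 deepest libraries, and leaving out each library.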

Additional observations from a re-analysis of the deposited data

How the results depend on the processing

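The count of all genes past the threshold in edgeR was 43, and it was 76 with no count filter, 775 in DESeq2 and 7 to 31 when 1 library was left out. Of the 10 genes, none that was tested was called in any alternative except DESeq2, which called 3. Ccl20 was tested only with no count filter. The pathway list genes with the members among them (95 tested) had 1 call in edgeR, which 0.339% of all tested genes passed. DESeq2 called 6 of them, the 3 members included (6.12% of all genes). With a term for the 2 deepest libraries 2 were called, and 0 to 1 without 1 library. Without 1 library, 2 to 4 of the 9 tested genes had no overlap between groups, against 29.4% to 35.9% of all tested genes. Birc3, Tnf, Bcl3 and Tnfaip3 kept their direction in all alternatives that tested them. Tnf and the pathway list gene Lcn2 were not tested with a minimum count of 30. Relb was 0.037 in limma-voom. Without 1 library, log2 fold changes ranged from -0.38 to 0.14 for Nfkbia, -0.19 to 0.048 for Nfkb1, -0.17 to 0.11 for Nfkb2, -0.19 to 0.17 for Relb, -0.74 to 0.54 for Cxcl1, -2.16 to 0.50 for Cxcl2 and -0.14 to 0.17 for Birc2; the cause was not tested. The replicate block could use only the 4 libraries numbered 3 and 4, whose deviations from group means had correlations of 0.30 and 0.66 within the numbers; pairs with different numbers reached 0.33 (WT 2 with iKO 3) and 0.23 (WT 3 with iKO 33). The labels do not say that these numbers pair the samples. The block fit left out WT 2 and iKO 33 and had few libraries from which to estimate spread. Its calls therefore cannot be told apart from the loss of those libraries. With the block 103 genes were called, with 0 of the 9 members that were tested among them. Ier3 lost its call (edgeR adjusted p = 0.0763) and Gadd45b gained one (edgeR adjusted p = 0.0419). Low counts limit Birc3, Tnf, Ccl20 and Lcn2.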
